A study of Mus musculus with 6 samples.

Results

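The caudal and Hox homeobox genes were taken as all probes whose symbol in the platform annotation was Cdx1, Cdx2 or Cdx4, or began with Hoxa, Hoxb, Hoxc or Hoxd followed by a number. This gave 63 of the 45281 probes of an Illumina MouseWG-6 v2.0 expression beadchip, which reports a mean brightness over all beads of a probe. The 63 probes covered 42 genes, made up of 3 Cdx genes, 38 Hox genes and the antisense RNA Hoxd3os1. The RNA came from mouse embryonic stem (ES) cells 3 days after removal of LIF, a cytokine that holds mouse ES cells undifferentiated, and the comparison asks which genes depend on Atad2, a chromatin protein with an AAA ATPase domain and a bromodomain, while ES cells start to differentiate.

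All 6 arrays came from 46C-Atad2-tagged ES cells, so tagged Atad2 was shared by both groups. The cells had been transduced with the lentiviral vector pLKO.1 and selected with puromycin. The vector carried either an shRNA against Atad2 (shAtad2, 3 arrays) or a control shRNA (shCtrl, 3 arrays). The paper describes the control both as non-targeting and as an inactive anti-Atad2 shRNA. Each condition was a stable pool of transduced cells, not a clone. Since each pool carried its own hairpin, a difference due to the hairpin or the pool cannot be told apart from loss of Atad2. The labels do not say that the replicates were separate cultures, so p-values cover only the spread among these arrays, part or all of which may be technical.

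Hox genes encode homeodomain transcription factors that give cells their position along the body axis. They lie in the clusters HoxA, HoxB, HoxC and HoxD, and genes with the same number in different clusters form a paralogue group. Low numbers are switched on first and reach up to the hindbrain, and high numbers follow later in the trunk and tail. Cdx1, Cdx2 and Cdx4 encode the caudal-type homeodomain factors of the posterior embryo, where they act downstream of Wnt and Fgf signals and bind Hox clusters to switch on trunk Hox genes. Cdx2 is also a master regulator of the trophectoderm, the outer layer of the blastocyst, and of the gut.

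Promoters are shown for Cdx2, Hoxb1 and Hoxa2, which, Cdx1 aside, had the largest fitted decreases among the 8 genes above background with a promoter in the table used, and which held a motif of a homeodomain or POU factor. They span 250 bases before to 50 bases after the annotated start, come from RefSeq on build GRCm38.p6, and are written on the strand of the gene. The promoter of Cdx2 (chr5:147307200-147307499, minus strand) has in capitals an octamer, the motif ATGCAAAT that POU factors such as Oct4 are known to bind, which begins 147 bases before the start. In the promoter of Hoxb1 (chr11:96365508-96365807, plus strand) the capitals mark a match to TGATNNAT, a form of the composite motif of Pbx and Hox proteins, 162 bases before the start. The promoter of Hoxa2 (chr6:52164782-52165081, minus strand) has in capitals the same motif read on the opposite strand, 111 bases before the start.
Cdx2: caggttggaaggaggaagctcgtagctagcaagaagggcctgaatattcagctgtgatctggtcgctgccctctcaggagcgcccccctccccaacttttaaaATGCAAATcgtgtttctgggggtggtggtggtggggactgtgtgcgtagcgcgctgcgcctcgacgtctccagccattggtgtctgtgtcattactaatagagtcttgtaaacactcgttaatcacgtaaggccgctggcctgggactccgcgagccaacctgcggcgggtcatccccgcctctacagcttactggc
Hoxb1: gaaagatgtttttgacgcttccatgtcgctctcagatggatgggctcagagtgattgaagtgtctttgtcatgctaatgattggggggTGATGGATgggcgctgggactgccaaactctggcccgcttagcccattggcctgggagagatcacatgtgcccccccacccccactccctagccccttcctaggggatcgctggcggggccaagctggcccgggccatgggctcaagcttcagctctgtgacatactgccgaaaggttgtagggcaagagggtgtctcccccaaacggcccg
Hoxa2: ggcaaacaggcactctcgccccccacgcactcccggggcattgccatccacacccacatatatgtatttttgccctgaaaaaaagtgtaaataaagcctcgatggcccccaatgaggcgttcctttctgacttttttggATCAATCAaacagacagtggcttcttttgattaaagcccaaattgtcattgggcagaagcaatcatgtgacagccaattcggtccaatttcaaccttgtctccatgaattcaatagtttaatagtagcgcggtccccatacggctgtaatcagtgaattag
The octamer occurred in 1.74% of all 32851 promoters of the same length and in 2 of 27 promoters of Cdx and Hox genes (Cdx2 and Cdx4). TGATNNAT occurred in 8.85% of all promoters and in 4 of 27 (Hoxa2, Hoxb1, Hoxb8 and Hoxd11). In all, 10 motifs were searched on both strands, and none contains another. The other 8 were CTTTGA and its relative CTTTGT for TCF and LEF factors, TTTATG and the longer TTTATTG for Cdx factors, AGGTCA for retinoic acid receptors, TGACGTCA for cyclic AMP responses, the E-box CAGATG and the TATA box TATAAA, found in 1 to 7 of the 27 promoters against 1.79% to 18.7% of all promoters. The octamer was added to the search after it had been seen in the Cdx2 sequence, and the printed promoters were chosen with the values known. A match is a description of the letters in the window. The 27 promoters belonged to 25 of the 42 genes, 8 of them among the 15 genes above background, and held a median of 14 CpG dinucleotides against 7 in all promoters.

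Few of these genes were read above background at day 3. A probe was counted as above background when it reached detection (p under 0.05) on 3 or more of the 6 arrays, which 19 of the 63 probes met, for 15 of the 42 genes. The share of probes was 30.2%, against 39.9% of all probes and 44.4% of all probes with a single gene symbol. By gene it was 35.7%, against 52.9% of all genes on the array. On no array was detection reached by 36 of the 63 probes. With detection asked on all 6 arrays 9 probes passed, and with a detection p-value under 0.01 on at least 3 arrays 15 passed.

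Detection differed between clusters and between positions in them. HoxB had the most genes above background, 5 of 10, from Hoxb1, Hoxb2, Hoxb4, Hoxb5 and Hoxb7. HoxA had 4 of 10 (Hoxa2, Hoxa5, Hoxa7 and Hoxa13), HoxC had 3 of 9 (Hoxc6, Hoxc9 and Hoxc10) and HoxD had Hoxd4 alone among 10 symbols, Hoxd3os1 included. By position, 5 of 11 genes of paralogue groups 1 to 4 were above background, 5 of 11 of groups 5 to 8 and 3 of 16 of groups 9 to 13. In probes the shares were 7 of 19, 6 of 12 and 3 of 26. Every probe of groups 2 and 7 passed, and no probe of groups 3, 8, 11 and 12 did.

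**Figure D1:**
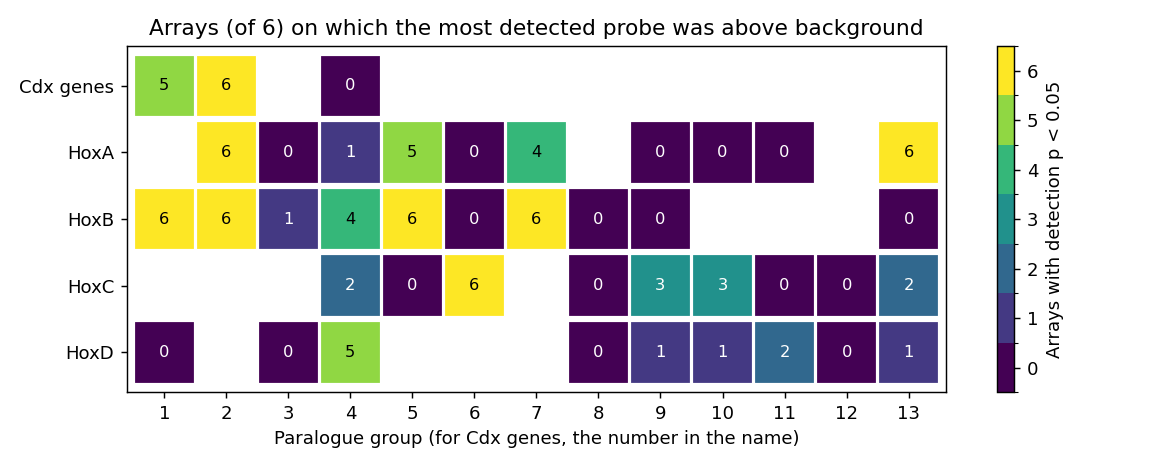
Each square is a gene, placed by cluster (rows) and paralogue group (columns, for Cdx genes the number in the name), and the number and colour give on how many of the 6 arrays its most often detected probe had a detection p-value under 0.05. White squares hold no gene analysed here, and the right side, groups 9 to 13, holds 3 of 16 genes on 3 or more arrays.

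Of the 27 genes below that limit, Hoxc4, Hoxc13 and Hoxd11 were detected on 2 arrays each. Hoxa4, Hoxb3, Hoxd9, Hoxd10 and Hoxd13 were detected on 1 array each. The other genes were detected on none: Cdx4, Hoxa3, Hoxa6, Hoxa9, Hoxa10, Hoxa11, Hoxb6, Hoxb8, Hoxb9, Hoxb13, Hoxc5, Hoxc8, Hoxc11, Hoxc12, Hoxd1, Hoxd3, Hoxd8, Hoxd12 and Hoxd3os1. The 44 probes not above background read between 4.26 and 5.54 in normalized log2 intensity on single arrays, with a median of 4.54, which is also the median of all probes not above background on the array. With the filter dropped and all 42 genes tested, 0 passed the adjusted threshold without the block.

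The state of the whole series bears on every value that follows. The third arrays of both groups stood apart, at 26.1 and 26.8 on a first principal component that held 48.0% of the variance, against -15.4 to -11.9 for the other 4 arrays. Between 39.3% and 40.9% of all probes were detected on each array. The third array had the fewest of its group in shAtad2 (39.7%, against 40.1% and 40.5%). In shCtrl it had the most (40.9%, against 39.3% and 39.6%). Atad2, the targeted gene, read 5.69, 5.64 and 5.41 in shAtad2 and 6.28, 6.48 and 6.39 in shCtrl, a log2 difference of -0.80 (SE 0.14, limma adjusted p = 0.310, and 0.0927 with the replicate block), with no overlap between the groups. The ES cell markers Pou5f1, Nanog, Sox2 and Zfp42 were detected on all 6 arrays. From the mean of arrays 1 and 2 to array 3, Zfp42 shifted by -1.99 log2 in shAtad2 and -1.45 in shCtrl. Pou5f1 shifted by -0.11 and -0.52, Nanog by 0.01 and 0.08, and Sox2 by -0.20 and 0.43. In bulk RNA, fewer cells of a type and less RNA per cell cannot be told apart.

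Cdx2 was the member with the largest difference and was lower in shAtad2 in all 3 pairs of arrays with the same replicate number. Its unnormalized intensity was 611.5, 545.6 and 153.9 on the shAtad2 arrays 1, 2 and 3, and 1310.4, 1061 and 219.5 on the shCtrl arrays. In normalized log2 intensity, the scale of all levels and differences from here on, these became 8.99, 8.88 and 5.43 in shAtad2 and 10.08, 9.90 and 6.89 in shCtrl. The first and second arrays of shCtrl were the highest, the same arrays of shAtad2 came next, and the third array of each group was far below, so that the groups overlapped. Without a block for the replicate number the means were 7.77 ± 2.02 and 8.96 ± 1.79 (SD, n = 3 each). The difference was -1.19 (SE 1.12, 95% interval -3.79 to 1.41), and the limma p with Benjamini-Hochberg adjustment over all genes was 0.900. With the replicate number as a block the same difference had an SE of 0.145 (95% interval -1.52 to -0.85), and the limma adjusted p was 0.0479.

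The within-pair differences of Cdx2 were -1.09, -1.02 and -1.46, or 2.28-fold lower in shAtad2 on average. Pair 3 compared unnormalized readings of 153.9 and 219.5 on arrays with medians of 133.3 and 130, so its size depends on the background correction. Without that correction the mean difference over the arrays was -0.77. Without the third arrays the difference was -1.05 and the limma adjusted p 0.0996, and with the block and pair 3 left out it was 0.0707. The call with the block was also lost without the filter on dim probes (adjusted p = 0.118) and with every kept probe tested by itself (0.0814). It held in the other 10 of 13 combinations of the block with another processing choice. With shAtad2 3 alone left out the unblocked difference was -0.02, and with shCtrl 3 alone left out it was -2.22. The shift of Cdx2 from the mean of arrays 1 and 2 to array 3 was -3.50 in shAtad2 and -3.09 in shCtrl, so the third arrays lay further from the others than the groups lay from each other.

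Cdx1, a target of Wnt and retinoic acid signals in the posterior embryo, had the same order at a much dimmer level. Its brighter probe read 5.82, 5.63 and 4.75 in shAtad2 and 6.24, 6.44 and 5.46 in shCtrl, and was not above background on shAtad2 3. The difference was -0.65 (SE 0.34, limma adjusted p = 0.720, and SE 0.140, adjusted p = 0.120 with the block), with pairs at -0.42, -0.81 and -0.71. The unblocked difference was -0.94 without shCtrl 3 and -0.32 without shAtad2 3. The other Cdx1 probe read 5.57, 5.95 and 4.47 against 6.52, 6.43 and 4.87, a difference of -0.61 with all pairs lower, and was detected on 2 arrays of each group. Both probes of Cdx1 therefore gave the same sign and a like size, and neither passed the test. Cdx4 was on no array above background.

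**Figure D2:**
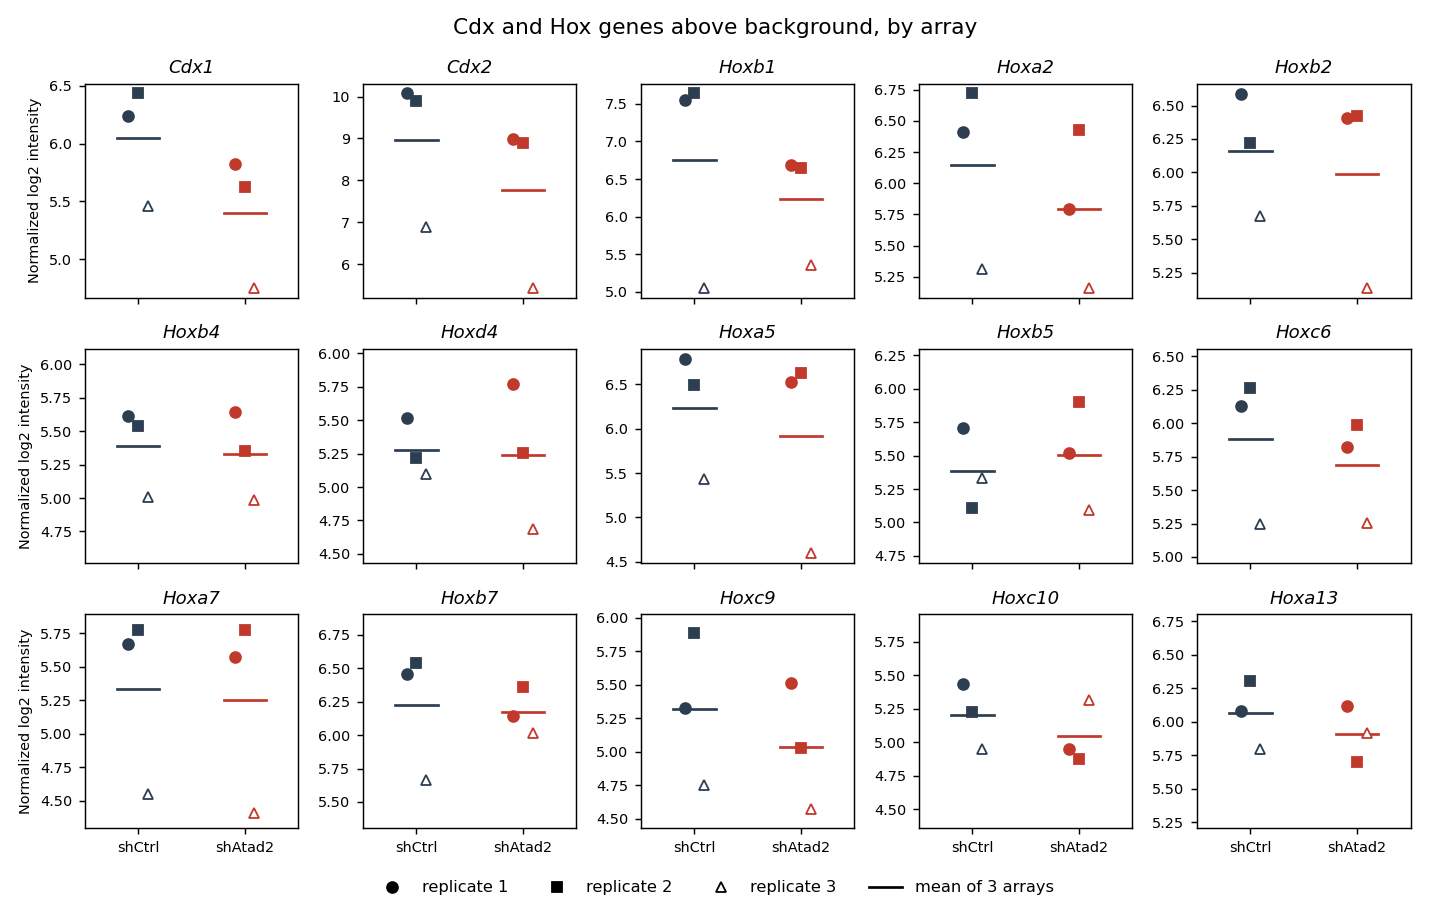
Normalized log2 intensity (vertical axis, a separate range in each panel) of the 15 Cdx and Hox genes above background, by group, with the symbol giving the replicate number and the bar the mean of 3 arrays. The open triangles of replicate 3 are the lowest point of both groups in 12 of the 15 panels, and the groups overlap in all of them.

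Among Hox genes of groups 1 to 4, which act in the hindbrain and neck, Hoxb1 had the largest difference. Hoxb1 gives the fourth rhombomere of the hindbrain its identity. Its brighter probe read 6.69, 6.64 and 5.36 in shAtad2 and 7.55, 7.64 and 5.05 in shCtrl. Arrays 1 and 2 of shAtad2 lay below their shCtrl counterparts, and on the third arrays the order was turned. The pairs were -0.86, -0.999 and 0.31, and the fitted difference was -0.52 (SE 0.69, limma adjusted p = 0.942, and SE 0.246, adjusted p = 0.421 with the block). The other probe read 6.30, 6.21 and 5.07 against 7.07, 7.10 and 5.15. It was lower in all 3 pairs, though by 0.08 only in the third, where it was detected in shCtrl and not in shAtad2. Without the third arrays the difference of the brighter probe was -0.93, and with single arrays left out it ran from -1.37 (without shCtrl 3) to -0.07 (without shCtrl 2).

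Hoxa2, which patterns the hindbrain and the second pharyngeal arch, was the Hox gene with all 3 pairs lower. It read 5.79, 6.42 and 5.16 in shAtad2 and 6.41, 6.72 and 5.31 in shCtrl. The difference was -0.35 (SE 0.42, limma adjusted p = 0.923, and SE 0.145, adjusted p = 0.341 with the block) and the pairs were -0.62, -0.30 and -0.15. It was -0.77 without shCtrl 3 and -0.04 without shAtad2 3. The groups overlapped. Since shAtad2 2 at 6.42 lay above shCtrl 1 at 6.41, the sign in every pair depends on how replicates 1 and 2 are matched. The dimmer probe, at 5.09, 5.46 and 4.49 against 5.19, 5.58 and 4.56, had pairs of -0.10, -0.12 and -0.07.

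The other genes of groups 1 to 4 lay closer together. Hoxb2, a hindbrain gene of the same paralogue group as Hoxa2, read 6.40, 6.42 and 5.14 in shAtad2 and 6.59, 6.22 and 5.67 in shCtrl. Hoxb4, a gene of the posterior hindbrain and neck, read 5.64, 5.35 and 4.98 against 5.61, 5.54 and 5.01. Hoxd4, its paralogue, read 5.77, 5.26 and 4.69 against 5.52, 5.22 and 5.10. The pairs had mixed signs in all 3 genes, and the fitted differences were -0.17 (SE 0.38), -0.06 (SE 0.23) and -0.04 (SE 0.27). Without the third arrays Hoxb2 and Hoxd4 were higher in shAtad2, by 0.0094 and 0.15.

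Groups 5 to 8, genes of the neck and thorax, gave 5 measured genes, of which Hoxa5 had the largest difference. Hoxa5 acts in the cervical and upper thoracic skeleton and in lung development. It read 6.52, 6.63 and 4.60 in shAtad2 and 6.79, 6.49 and 5.43 in shCtrl. Arrays 1 and 2 of the groups were intermixed, and the difference of -0.32 (SE 0.57, limma adjusted p = 0.958) came mainly from the third pair, at -0.84. Hoxa5 was detected on 2 shAtad2 and 3 shCtrl arrays, and its 4.60 on shAtad2 3 lay close to the median of probes not above background (4.54). Without the third arrays the difference was -0.06. Hoxb5, its paralogue, was the member that lay higher in shAtad2, at 5.52, 5.90 and 5.09 against 5.71, 5.11 and 5.34. That difference of 0.12 (SE 0.24) rested on the second pair, at 0.79, and without it the sign turned, to -0.22.

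Hoxc6, a thoracic gene also active at forelimb level, read 5.82, 5.99 and 5.25 in shAtad2 and 6.13, 6.27 and 5.24 in shCtrl. Its first and second arrays were lower in shAtad2 and the third arrays lay level, for a difference of -0.19 (SE 0.30, limma adjusted p = 0.954). Hoxa7, a thoracic gene, read 5.58, 5.78 and 4.41 against 5.67, 5.77 and 4.55. Hoxb7, its paralogue, read 6.14, 6.36 and 6.02 against 6.46, 6.54 and 5.67 on the brighter probe and 6.02, 5.63 and 5.86 against 6.04, 5.70 and 5.72 on the other. The paralogues of group 7 differed by -0.08 (SE 0.43) and -0.05 (SE 0.24), and the dimmer Hoxb7 probe by 0.02, all within the spread of the arrays.

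Genes of groups 9 to 13, which pattern the lower trunk, limbs and tail, were the least often detected. Hoxc9, which sets the identity of thoracic motor neurons, read 5.51, 5.03 and 4.57 in shAtad2 and 5.33, 5.88 and 4.75 in shCtrl, above background on 1 and 2 arrays. Hoxc10, a lumbar gene, read 4.95, 4.88 and 5.31 against 5.43, 5.23 and 4.95, also above background on 1 and 2 arrays, and the other Hoxc10 probe was on none. Hoxa13, which acts in digits, hindgut and urogenital tract, read 6.12, 5.70 and 5.92 against 6.08, 6.30 and 5.80, and the other Hoxa13 probes were on no array. Whether a Hox probe also reads a related Hox transcript was not tested, since probe sequences were not analysed here. The differences were -0.28 (SE 0.33), -0.16 (SE 0.18) and -0.15 (SE 0.18), with mixed signs among the pairs of each gene. Hoxa13 and Hoxc10 were not at their lowest on the third array of shAtad2.

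Over the module, 14 of the 15 measured genes had a lower mean in shAtad2, with a median difference of -0.173, against 50.3% of the 10072 genes tested and a median of -0.00121. Without shAtad2 3 the count was 7 of 15 and without shCtrl 1 it was 9 of 15, so the count of signs rests on single arrays. Within pairs, 11, 10 and 10 of the 15 were lower, with medians of -0.263, -0.278 and -0.150. Cdx1, Cdx2 and Hoxa2 were lower in all 3 pairs, which is 3 of 15 against 17.4% of all genes tested. In 0 of the 15 were all shAtad2 arrays below all shCtrl arrays, as they were in 6.59% of all genes tested.

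In the test without the block, 0 of the 15 genes passed an adjusted p under 0.05, as did 0% of all genes tested, and 0 had an unadjusted limma p under 0.05, against 7.92% of all genes tested. With the block, Cdx2 alone passed the adjusted threshold as lower, against 0.0794% of all genes (8 genes). Cdx2, Cdx1 and Hoxa2 had an unadjusted limma p under 0.05 as lower with the block, 3 of 15 against 6.9% of all genes tested. The 13 Hox genes without the Cdx genes had a median difference of -0.158, 12 of them lower, and 0 passed with or without the block. Since a gene entered when 3 arrays of any group detected it, these counts describe the measured genes and not all 42. Over all 63 probes, 44 had a lower mean in shAtad2, with a median difference of -0.0662, against 22615 of 45281 probes on the array.

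**Figure D3:**
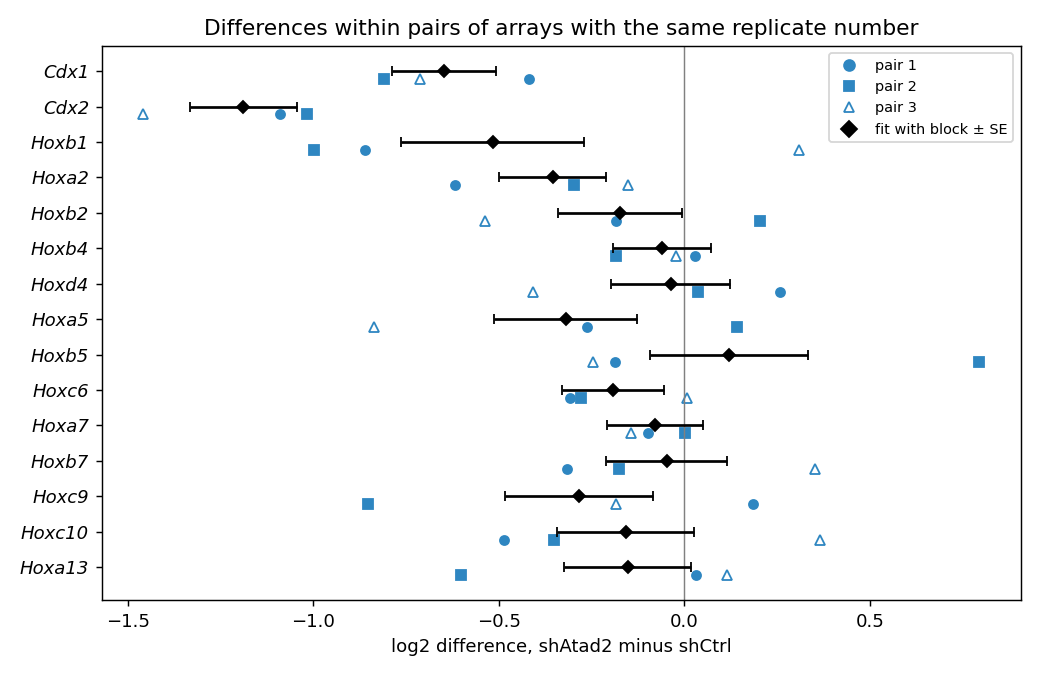
Log2 difference of shAtad2 minus shCtrl (horizontal axis) within each pair of arrays of the same replicate number, with the fitted difference ± SE of the blocked fit in black, for the 15 genes. Cdx2, Cdx1 and Hoxa2 have all 3 pairs below 0, and Cdx2 lies furthest left with pairs at -1.09, -1.02 and -1.46.

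The third arrays of both groups read low across most of these genes. In 12 of the 15 the third array was the lowest of its group in both groups, against 22.7% of all genes tested. The median shift of the third array from the mean of the other arrays of its group was -0.826 in shAtad2 and -0.856 in shCtrl, against 0.00237 and -0.00698 over all genes tested. Hoxb1 shifted by -1.31 and -2.54 and Hoxa5 by -1.98 and -1.20, though Hoxa5 was not above background on shAtad2 3. The third arrays also had the fewest member probes detected, 10 in shAtad2 (20 and 19 on arrays 1 and 2) and 15 in shCtrl (21 and 22 on arrays 1 and 2). What set these arrays apart was not tested.

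By paralogue group, each gene was set against its own mean over the 6 arrays and these deviations were averaged. The Cdx genes stood at 0.36, 0.21 and -1.95 on the shAtad2 arrays and at 1.12, 1.12 and -0.87 on the shCtrl arrays. Groups 1 to 4 stood at 0.23, 0.19 and -0.76 against 0.51, 0.44 and -0.60, and groups 5 to 8 at 0.16, 0.37 and -0.69 against 0.39, 0.28 and -0.51. Groups 9 to 13 stood at 0.095, -0.23 and -0.16 against 0.19, 0.37 and -0.26. The Cdx genes had the widest gap between the groups and between the third and the other arrays, and the posterior Hox genes the smallest drop on the third arrays. These are descriptions over 2, 5, 5 and 3 genes.

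Genes that work with the Cdx and Hox genes were read from lists compiled from general knowledge, with earlier results of these data known. In none of these lists did a gene pass the adjusted threshold with or without the block. Measured genes of caudal progenitors and presomitic mesoderm, which share the posterior growth zone with Cdx2, numbered 19. Of these, 15 had a lower mean in shAtad2, with a median difference of -0.396. With the block, 9 had an unadjusted limma p under 0.05 as lower, against the 6.9% of all genes given above. Without the block 1 did (Epha1), against 7.92% of all genes in either direction. Evx1, a homeobox gene of the primitive streak that lies next to HoxA, differed by -1.81 (SE 0.98, and 0.302 with the block, limma adjusted p = 0.0927), with pairs at -1.18, -1.36 and -2.88. The unblocked difference of Evx1 was -2.46 without shCtrl 3 and -0.63 without shAtad2 3. Epha1, an ephrin receptor, differed by -0.64 (SE 0.17, limma adjusted p = 0.436, and 0.123 with the block), without overlap of the groups. It was the 1 gene of this list with every shAtad2 array below every shCtrl array, against 6.59% of all genes tested. The list as a whole stood at 0.237, 0.145 and -1.10 on the shAtad2 arrays and 0.706, 0.601 and -0.594 on the shCtrl arrays. Arrays 1 and 2 of shCtrl were highest and the third array of shAtad2 lowest, as for the Cdx genes and Hox groups 1 to 4. With the block, the trophectoderm list read below had 7 of 13 genes with an unadjusted limma p under 0.05 as lower and 1 as higher. The endoderm list had 4 of 11 as lower and 0 as higher. The blocked count was therefore not particular to the caudal list.

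Cdx2 belongs to other tissues too, so markers used for them were read. Of the trophectoderm markers, Elf5, Hand1, Plac1 and Ascl2 were detected on 0 arrays, Gata3 on 4, and Eomes, Tfap2c, Krt8 and Krt18 on all 6. The paper uses Eomes as a mesoderm marker, so its detection is not particular to trophectoderm. In the trophectoderm list 12 of 13 measured genes had a lower mean in shAtad2 (median -0.366), against 50.3% of all genes tested. Its mean deviation was 0.124, 0.00425 and -0.534 on the shAtad2 arrays and 0.287, 0.281 and -0.162 on the shCtrl arrays. On the third arrays of both groups 7 of the 13 were lowest, like Cdx2, while Krt8, Krt18 and Tspan8 were highest there. The difference was -0.39 (SE 0.16) for the epithelial keratin Krt8 and 0.52 (SE 0.18) for the growth factor receptor Fgfr2. Tfap2c, which is also used by ES cells and germ cells, read 10.26, 10.07 and 6.98 against 10.37, 10.42 and 8.43, and so was lowest on the third arrays like Cdx2. The part of such cells in the Cdx2 difference was not tested.

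Of the markers of the caudal embryo, Fgf8 and Wnt8a were detected on all 6 arrays, Nkx1-2 and Tbx6 on 5, Cyp26a1 on 4 and Wnt3a on 3, while no probe in the annotation used here bore the symbol T. Of endoderm markers, Sox17, Afp and Ttr were on 0 arrays, Gata4 and Foxa2 on 1 and Gata6 on 5, at 7.25, 7.42 and 4.64 in shAtad2 and 8.46, 7.96 and 5.83 in shCtrl. Gata6 was thus highest on arrays 1 and 2 of shCtrl and lowest on the third array of shAtad2, like Cdx2, and what part endoderm cells had in the difference of Cdx2 was not tested.

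The proteins that Hox factors bind DNA with, the TALE cofactors of the Pbx, Meis and Pknox families, lay level as a list. All 8 measured genes were split 4 lower and 4 higher, with a median difference of -0.0033. Pknox2 differed by 0.44 (SE 0.26) and Pbx3 by 0.15 (SE 0.19). Of 8 measured genes that bind, break down or sense retinoic acid, the vitamin A product that switches on anterior Hox genes, 5 were lower (median -0.0833). No gene that makes retinoic acid was among the 8. Cyp26a1, the enzyme that clears retinoic acid in the tail bud, differed by -0.91 (SE 0.78), and Rxrg, a retinoid receptor, by 0.30 (SE 0.26).

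Homeobox genes of the anterior body had mixed signs. Of 8 measured, 5 had a higher mean in shAtad2, against 5009 of the 10072 genes tested, with a median difference of 0.302. En2, a gene of the midbrain and hindbrain border, differed by 1.02 (SE 0.26, limma adjusted p = 0.406, and 0.0731 with the block), and Irx3, a gene of the neural plate, by 0.95 (SE 0.51, and adjusted p = 0.0806 with the block). Both were higher in all 3 pairs, and Irx3 was at 0.51 without shCtrl 3 and at 1.49 without shAtad2 3. Irx2, Gbx2 and En1 were named after their values were seen. Irx2 and Gbx2 were lower in all 3 pairs, at -0.35 (SE 0.36) and -0.30 (SE 0.55). En1 had the largest increase of the list, at 1.85 (SE 1.08, limma adjusted p = 0.761, and 0.0897 with the block). All 5 higher genes were higher in all 3 pairs, against 1728 of the 10072 genes tested. With the block, 4 of the 8 had an unadjusted limma p under 0.05 as higher and 1 as lower, against 659 and 695 of all genes. Without the block 1 of the 8 did, against 7.92% of all genes. This list also stood lowest on the third arrays, at 0.582, 0.486 and -0.388 on the shAtad2 arrays and 0.132, 0.168 and -0.980 on the shCtrl arrays.

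**Figure D4:**
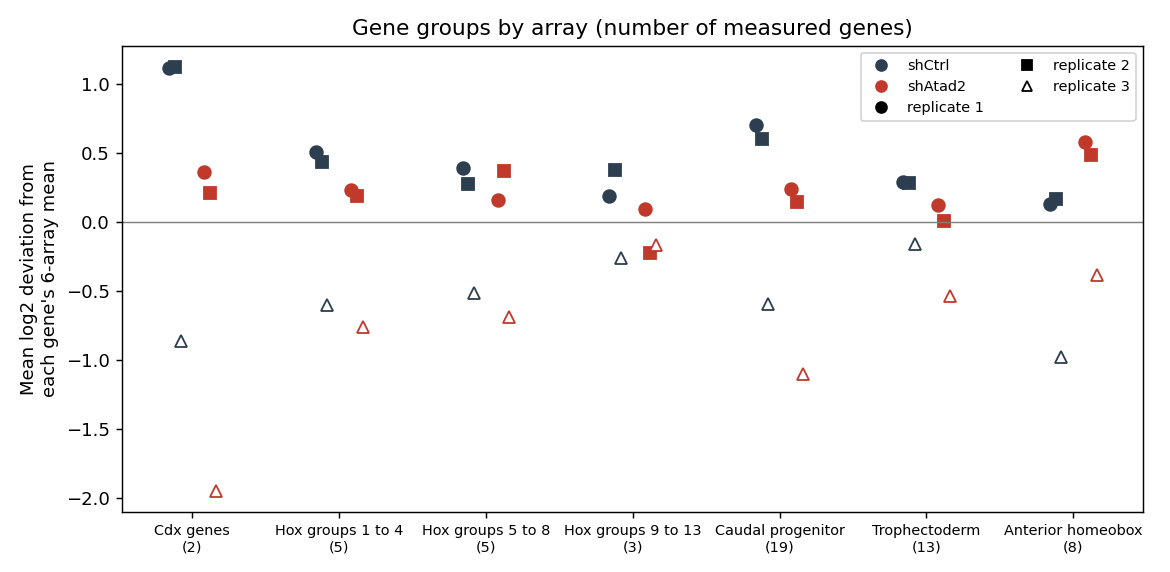
Mean deviation of each gene group from the genes' own 6-array means (vertical axis, log2), by array, with colour for the group of cells, symbol for the replicate number, and the number of measured genes in brackets. The open triangles of replicate 3 lie lowest in most groups. The shCtrl arrays 1 and 2 lie above the shAtad2 arrays 1 and 2 in most groups. They are intermixed for Hox groups 5 to 8, and the order is turned for anterior homeobox genes.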

How the data were processed

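The authors deposited unnormalized intensity and a detection p-value per probe, and another table of processed intensity, whose 6 columns had the same median (141.1) and the rank order of the unnormalized values. Scanner software and normalization are not given in the sources used here. Unnormalized intensity was background-corrected (normexp using detection p-values, offset 16), quantile-normalized and log2-transformed (neqc procedure, limma 3.58.1, R 4.3.3). The offset understates log2 differences at low signal. The precision is limited by 3 arrays a group.

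Probes with a detection p-value under 0.05 on at least 3 arrays were kept (18085), and each gene with a single symbol was represented by its brightest kept probe (10072 genes). Platform symbols were updated through Entrez identifiers for 34807 of 34885 probes. Groups were compared with limma (lmFit, eBayes, two-sided, Benjamini-Hochberg over all genes), without a block as the main design. For same-numbered arrays, deviations from the group means had correlations of 0.298, 0.287 and 0.578, so the numbers were taken as pairs and the blocked fit is given where it changes a call. The pairing of replicates 1 and 2 is weak, since the correlation was 0.299 for shAtad2 1 with shCtrl 2, and 0.342 for shAtad2 2 with shCtrl 1.

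Named genes were the Cdx and Hox genes above background, Atad2, marker genes and, for each list, the pair of members with the smallest p-values. The members and lists were chosen with earlier results of these data known. No set test was run. The scripts were tested on simulated data. Alternatives covered background correction, normalization, the processed table, the filter, the probe chosen per gene, the variance model, the replicate block and arrays left out. Combinations of the block with the others were added after seeing the data. Motifs were counted with Python 3.11.15 in RefSeq promoters of GRCm38.p6.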

Additional observations from a re-analysis of the deposited data

How the results depend on the processing

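Without a block, 0 Cdx or Hox genes passed under any setting. Of all genes tested, 0 passed in the main fit and with any 1 array left out (0 to 0), against 1 without background correction, with offset 50, with the authors' processed intensity or with trend and robust eBayes, and 3 without the third arrays of both groups. In these settings Cdx2 ranged from -0.7727 without background correction to -1.236 without normalization between arrays, and from -2.22 to -0.02196 with single arrays left out. With the replicate block 10 genes passed, 1 of them a member, Cdx2, at -1.188.

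Combined with the block, the count of genes was 167 without background correction (Cdx2 -0.7727), 231 with offset 50 (-0.9973), 10 with cyclic loess (-1.231), 44 without normalization (-1.236), 199 with processed intensity (-0.7885), 87 with detection on all arrays, 34 with a detection p-value under 0.01, 284 with trend and robust eBayes, 67 without replicate 1 (-1.237), 25 without replicate 2 (-1.274), 13 without replicate 3 (-1.053), and 0 without a filter or with every kept probe. Member probes above background fell to 9 with detection on all arrays.

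The sign turned in 11 of the 15 member genes under some setting and in 0 of the other 20 genes run, which were Atad2 and those named from the lists by their p-values. Genes picked for small p-values in the same data seldom turn sign, so these counts do not compare members with other genes. Markers were not run. With single arrays left out, the range was -0.07933 to 0.3268 for Hoxb5, -0.7204 to 0.3402 for Hoxa5, -0.4703 to 0.3428 for Hoxa7, -0.4157 to 0.2523 for Hoxb2, -0.2497 to 0.1115 for Hoxb4, -0.3251 to 0.111 for Hoxb7, -0.511 to 0.02457 for Hoxc6 and -0.3038 to 0.2382 for Hoxd4. Genes named from the lists whose sign held also moved by over 1.5 times with 1 array left out, over 0.1426 to 0.6595 for Pknox2, 0.0008801 to 0.3034 for Pbx3, -1.827 to -0.3596 for Cyp26a1, 0.01799 to 0.445 for Rxrg, 0.197 to 0.4708 for Skap2, 0.277 to 0.6826 for Fgf5 and -1.388 to -0.3649 for Tbx3. Without the third arrays of both groups, blocked or not, Hoxb2 was 0.009388 and Hoxd4 0.1477. With the block and without replicate 1, Hoxb7 was 0.08709 and Hoxc10 0.006938, and without replicate 2 Hoxa13 was 0.07287, Hoxb4 0.00255, Hoxb5 -0.2166, Hoxb7 0.01755 and Hoxc9 0.000757. The cause was not tested. The replicate block changed no other call among the named genes.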

Other observations

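The chromatin regulators that hold Hox clusters silent or active were read as well. Of 26 measured Polycomb genes, whose products keep Hox clusters repressed in ES cells, 16 had a lower mean in shAtad2 and 10 a higher one, with a median difference of -0.0238, close to that of all genes. Aebp2, an accessory subunit of Polycomb complex PRC2, differed by 0.38 (SE 0.15), and Phc1, a subunit of PRC1, by 0.35 (SE 0.15), both higher in all 3 pairs and without overlap of the groups. Of the 26 Polycomb genes, 2 lay above and 2 below without overlap, against 699 and 664 of the 10072 genes tested. In all 3 pairs 2 of the 26 were higher and 8 lower, against 1728 and 1749 of all genes tested. Of 18 measured Trithorax genes and relatives, 6 were lower and 12 higher (median 0.0693). Ash2l, a core subunit of the histone H3 lysine methyltransferase complexes, differed by -0.60 (SE 0.14) and Dpy30, a subunit of the same complexes, by -0.27 (SE 0.13), both lower in all 3 pairs and without overlap. Of the 18 Trithorax genes and relatives, 0 lay above and 2 below without overlap, and 3 were higher and 3 lower in all 3 pairs. None of the Polycomb or Trithorax genes passed the limma test over all genes.

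Of 9 measured genes that lie beside the Hox clusters, 4 were lower and 5 higher (median 0.023), with Evx1 as described and Skap2 at 0.35 (SE 0.19). Of 11 measured endoderm genes, 9 were lower (median -0.0715), among them Lamb1, a laminin chain, at -0.58 (SE 0.14) and Foxa1 at -0.68 (SE 0.25), which was above background on 1 shAtad2 array. Of 16 pluripotency genes, 12 were lower (median -0.16), with Tbx3 at -1.01 (SE 0.55) and Fgf5, a gene of the primed epiblast, at 0.48 (SE 0.24). These lists too had 0 genes past the adjusted threshold with or without the block.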
